A study of Mus musculus with 11 samples.

Results

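The genes described here are 10 immediate early genes, Fos, Fosb, Jun, Junb, Jund, Egr1, Atf3, Ier2, Ier3 and Zfp36, in endothelial cells that had been taken out of the retina by enzymatic digestion and sorted. They were chosen by name, and each symbol was matched through the GENCODE mouse annotation to 1 of the 55359 genes in the count data. All 10 passed the filter on low counts, which 17050 genes passed. RNA was sequenced from 11 mice (C57BL/6 in the labels, C57BL/6J in the study's methods) in the model of oxygen-induced retinopathy (OIR), in which pups spend time in high oxygen and then return to room air, so that vessels are lost first and later grow back abnormally. Of these mice, 5 received 0.5 µL of oncostatin M (OSM), a cytokine of the interleukin-6 family, at 100 ng/µL into the vitreous at P12, and 6 received 0.5 µL of PBS. This is the dose of the labels and methods, and the study gives a far smaller amount of OSM elsewhere, which was not resolved. No genetic change was given for any mouse, and no group was left without an injection. At P17 both retinas of a mouse were pooled and digested, and live CD31+/CD45- cells were collected, so that 1 library stands for 1 mouse. The study's methods give PBS for the opposite eye in its in vivo work, and what each pooled eye of a sequenced mouse received is not given in the sources used here. Mice 1 and 2 (OSM) and mice 3 and 4 (PBS) came from litter 1, mice 5 and 6 (OSM) and mice 7 and 8 (PBS) from litter 2, and mouse 9 (OSM) and mice 10 and 11 (PBS) from litter 3. Each litter was also a separate OIR run, so litter and run cannot be told apart.

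Immediate early genes are transcribed within minutes of a stimulus, without new protein synthesis, because the factors that switch them on are already present in the cell. Serum response factor with its partners, and factors that bind the cyclic AMP response element, are the best known of these, and growth factors, cytokines, shear stress and cell stress all reach them through kinase cascades. The transcripts are usually short-lived. Tissue digestion is itself a known stimulus, and these genes often mark cells that were dissociated warm. No undissociated retina was sequenced here, so the part of any level that arose during digestion cannot be told apart from the level in the retina.

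Much of what the genes share lies in their structure. In GRCm39 with GENCODE vM39, the canonical transcripts of Jun (chromosome 4), Junb, Jund and Ier2 (all on chromosome 8) have a single exon, as do 2.69% of the 13341 coding genes tested, and all 10 have 4 exons or fewer, against 22.1% of those genes. The median span of the canonical transcript on the genome, introns included, was 3290 bases against 22469. The median transcript length was 2049 against 3463 bases. The pentamer ATTTA is the core of the AU-rich elements that Zfp36 protein binds, and by number of copies it set the 10 genes little apart. It occurred 2 or more times in the 3′ untranslated region of 7 of the 10 genes, against 53.3% of all. The median was 2.5 copies against 2 over all, with 5 copies in Ier3, 4 in Fos and in Jun, and none in Ier2. These counts are not corrected for length, and the 3′ untranslated regions of the 10 genes were shorter. Their median was 794.5 bases against 1331 over all. Copies per base were not compared with those of all genes.

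The 500 bases before each transcription start were searched on both strands for binding motifs of the factors named above. The CArG box, the element bound by serum response factor, was found in Fos and Fosb, against 2.60% of the 13341 promoters. The full cyclic AMP response element TGACGTCA was found in Jund and Ier2, against 2.32%. These 4 stretches are shown because they hold the elements through which such genes are classically switched on. The capitals mark the motif, and positions count back from the start site, in GRCm39.
Fos, CArG box at -303 to -294, chr12:85520335-85520384, plus strand: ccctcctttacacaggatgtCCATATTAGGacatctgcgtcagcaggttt
Fosb, CArG box at -266 to -257, chr7:19044213-19044262, minus strand: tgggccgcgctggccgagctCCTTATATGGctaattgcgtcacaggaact
Jund, cyclic AMP response element at -214 to -207, chr8:71151365-71151412, plus strand: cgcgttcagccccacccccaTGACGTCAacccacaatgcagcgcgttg
Ier2, cyclic AMP response element at -43 to -36, chr8:85389499-85389546, minus strand: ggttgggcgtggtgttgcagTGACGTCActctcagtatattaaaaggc
Of the other motifs, TGANTCA, a loose form of the AP-1 site with any base at N, was found in Fos alone among the 10 (10.1% of all promoters). The match in Fos was TGAATCA. The STAT site TTCNNNGAA was found in Egr1 and Ier3 (13.6%), TATAAA in Fos and Junb (17.6%), and the EGR site GCGTGGGCG in none (0.982%). A match describes these letters only, and a motif that is absent from this window may lie elsewhere.

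All 10 genes were expressed in every mouse. On a scale that corrects for transcript length (RPKM, reads divided by exon length and by library size), Ier2 had the highest mean level, 266 ± 48.8 (SD, n = 11), above 99.5% of the genes tested. Junb (112 ± 22.3), Fos (108 ± 40.5) and Jun (97.2 ± 17.3) came next, and their mean RPKM differed by less than their spread between mice. Ier3 followed at 62.6 ± 21.4 and Egr1 at 41.0 ± 16.1. Jund (26.0 ± 5.63), Atf3 (21.8 ± 7.81) and Zfp36 (20.9 ± 8.00) again did not differ beyond their spread. Fosb was far lower, 1.84 ± 0.689 RPKM, above 49.0% of the genes tested. For comparison, the endothelial marker Cldn5, a tight junction protein, stood at 3317 RPKM.

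Total counts ranged from 26697990 to 56033479 per mouse, and 16635 to 20898 genes had at least 1 read. The sorted cells carried their defining markers, with Kdr at 218 and Cd34 at 184 RPKM and a summed level of 8 endothelial markers of 11243 to 15911 CPM (counts scaled to library size with TMM factors, not corrected for length). Rod markers, from photoreceptors, summed to 207 to 1520 CPM in 9 mice, to 1791 CPM in mouse 6 and to 5508 CPM in mouse 5. Leukocyte and microglia markers summed to at most 5.0 CPM in 8 mice and to 26.1, 81.4 and 20.2 CPM in mice 3, 4 and 5, and Ptprc, which encodes CD45, had 0 reads in 6 mice and at most 22. In bulk samples, fewer cells of a type and less RNA per cell cannot be told apart. The library kit does not mark strand, and the counter by default drops reads that fall on more than 1 gene. Exons of Junb overlap those of Prdx2, and those of Jun, Jund and Zfp36 overlap a counted noncoding gene on the other strand, so that their counts are less certain than those of Fos, Fosb, Egr1 and Ier2, which have no overlapping gene, and Atf3, which has none at its exons. Exons of Ier3 and Junb also overlap noncoding genes of the newer annotation that were not among the genes counted, and reads from these cannot be told apart.

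The first comparison asks whether the immediate early genes differed between OSM and PBS 5 days after the injection. They did not differ detectably: with litter as a term, edgeR's quasi-likelihood test with Benjamini-Hochberg adjustment over all genes called 0 of the 10 genes, against 0% of all genes, and also gave 0 of the 10 genes an unadjusted p under 0.05, against 4.96% of the 17050 tested. DESeq2 with litter called 0 of the 10 and 168 genes in all (0.757%). The log2 difference was below 0 for 8 of the genes and above 0 for Ier3 and Jun, with a median of -0.05 over the 10 and of -0.01 over all genes tested.

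Fos, the AP-1 subunit most used as a marker of recent stimulation, had 341, 362, 204, 137 and 215 CPM in OSM mice 1, 2, 5, 6 and 9. In the 6 PBS mice it ranged from 143 to 439 CPM with a median of 252 CPM. The groups overlapped over almost their whole range, and high values came from litter 1 in both. The log2 difference between OSM and PBS was -0.05 (SE 0.15), with a 95% interval of -0.38 to 0.29. Fosb, its lower expressed relative, had 10.5, 14.6, 5.20, 5.10 and 17.7 CPM in the OSM mice and 7.38 to 15.6 CPM (median 13.4) in the PBS mice. The OSM mice held both its lowest and its highest values, and its log2 difference of -0.23 (SE 0.29) was the least certain of the 10, with an interval of -0.87 to 0.41.

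The Jun subunits, which pair with Fos proteins in AP-1, had narrower intervals than Fosb. Those of Jun and Junb were also narrower than that of Fos, and that of Jund was not. Jun differed by 0.01 on the log2 scale between OSM and PBS (SE 0.12, interval -0.25 to 0.28), Junb by -0.04 (SE 0.12, interval -0.29 to 0.22) and Jund by -0.02 (SE 0.17, interval -0.40 to 0.37). Egr1, a zinc finger factor, had 249, 287, 144, 101 and 143 CPM in the OSM mice and 80.2 to 301 CPM (median 168) in the PBS mice, a log2 difference of -0.05 (SE 0.18, interval -0.46 to 0.35). Atf3, a stress-induced repressor of the same bZIP family as Fos and Jun, differed by -0.07 (SE 0.16, interval -0.43 to 0.30).

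Ier2 and Ier3, a nuclear regulator and a survival factor, differed by -0.06 (SE 0.12, interval -0.32 to 0.19) and 0.09 (SE 0.15, interval -0.24 to 0.41) on the log2 scale. Zfp36, the protein that promotes decay of mRNAs with AU-rich elements, differed by -0.11 (SE 0.15, interval -0.44 to 0.22). The adjusted p in the edgeR fit was 1 for each of the 10 genes. The intervals of 9 genes therefore exclude a log2 difference beyond 0.5 in either direction, and that of Fosb does not. No gene separated the 5 OSM mice from the 6 PBS mice without overlap, against 0.405% of all genes tested.

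**Figure D1:**
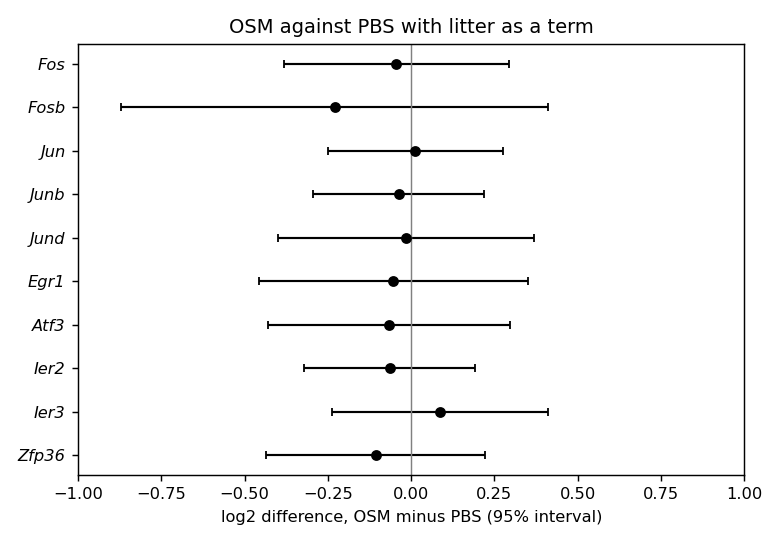
Log2 difference between OSM and PBS (x axis) for each of the 10 genes (y axis), from the edgeR fit with litter as a term. Points are estimates and lines 95% intervals. All 10 lines cross 0, and that of Fosb, from -0.87 to 0.41, is the widest.

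Within litters the sign was mixed. Fos was higher in the OSM mice by 0.02 in litter 1 and by 0.06 in litter 2, and lower in litter 3, at -0.27, as differences of mean log2 CPM. Fosb spread most, at -0.20, -0.66 and 0.33 in litters 1, 2 and 3. For Junb, the level in OSM mice 5 and 6 of litter 2 was 235 and 204 CPM against 249 and 275 CPM in the PBS mice. In litter 3 it was 276 CPM in OSM mouse 9 against 212 and 200 CPM in the PBS mice. So the log2 difference of Junb was -0.15, -0.26 and 0.42 in litters 1, 2 and 3, the last with a single OSM mouse. The edgeR test of the treatment by litter interaction called 0 of the 10 genes (0% of all), and so did DESeq2 (4.69% of all genes) and edgeR without a filter on low counts (1.05%). Junb was the 1 of the 10 with an unadjusted p under 0.05, a share that 6.42% of all genes reached, and its adjusted p was 0.757.

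The summed red blood cell markers were higher in the OSM mice than in the PBS mice within each litter, and the groups overlapped across litters. All 5 hemoglobin and heme genes on that list had an unadjusted p under 0.05 in edgeR, against 4.96% of all genes tested. Their log2 differences were 1.02 to 1.46 (none called), and their summed level was 358 to 1128 CPM in the OSM mice and 117 to 596 CPM in the PBS mice. All 9 mural cell markers had a log2 difference below 0, as did 8795 of the 17050 genes tested. The part of these cells in the values of the immediate early genes was not tested.

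The larger differences lay between litters. Litter 1 had the highest fitted level of 9 of the 10 genes, all but Fosb, and of 5918 of the 17050 genes tested. Some markers of cell types differed between litters too. The summed endothelial markers were at 14074 to 15911 CPM in litter 1 and at 11243 to 14247 CPM in the other mice. Of the 8, 2 were called as higher in litter 1 than in litter 2. These were Pecam1 (log2 difference between litters 1 and 2 of 0.57, SE 0.09, adjusted p 0.0469 in the edgeR fit) and Vwf (0.67, SE 0.11, adjusted p 0.0473). Litter 1 had the highest fitted level of 6 of the 8, all but Cldn5 and Erg. The log2 difference between litters 1 and 2 was -0.14 (SE 0.11) for Cldn5, the highest expressed of the 8. It was -0.01 (SE 0.22) for Erg and 0.06 (SE 0.08) for Cd34. All 10 rod markers and all 5 red blood cell markers had a log2 difference below 0 between litters 1 and 2, with medians of -2.03 and -1.21. Hbb-bt was called (-2.52, SE 0.40, adjusted p 0.0469 in the edgeR fit). Over the 3 litters, 10.3% of all genes tested had an unadjusted p under 0.05 in edgeR. So did 4 of the 8 endothelial markers, 1 of the 10 rod markers and all 5 red blood cell markers. In litter 2 the summed rod markers were uneven, at 5508 and 1791 CPM in OSM mice 5 and 6 and at 795 and 675 CPM in PBS mice 7 and 8. In litter 1 they were at 418 to 547 CPM. The part of these cell types in the litter differences of the immediate early genes was not tested. With treatment as a term, 9 of the 10 genes, all but Jund, had an unadjusted p under 0.05 in edgeR's test between the 3 litters, against 10.3% of all genes tested. After adjustment over all genes, 0 of the 10 passed, against 0.0176% of all genes, with the lowest adjusted p at 0.0861 for Fos and Zfp36. The 3 genes called were Klf6, an immediate early gene not among the 10, Depp1 and mt-Co1. The count depended on the tool and the filter: DESeq2's likelihood ratio test called 7 of the 10 (Fos, Fosb, Junb, Egr1, Atf3, Ier3 and Zfp36), against 6.88% of all genes, and edgeR without a filter on low counts called 5 (Fos, Egr1, Atf3, Ier3 and Zfp36), against 2.16%.

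In litter 1, Fos was at 341, 362, 439 and 274 CPM in mice 1 to 4. Litter 2 had 204, 137, 143 and 179 CPM in mice 5 to 8, and litter 3 had 215, 289 and 231 CPM in mice 9 to 11. All values of litter 1 lay above all of litter 2, and litter 3 fell between, with mouse 10 above mouse 4. The log2 difference between litters 1 and 2 was 1.09 (SE 0.18), with an adjusted p of 0.0469 in the edgeR fit. Between litters 1 and 3 it was 0.54 (SE 0.19, adjusted p 0.412).

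Zfp36 had 74.2, 122, 121 and 97.0 CPM in litter 1, 46.7, 49.1, 58.8 and 47.0 CPM in litter 2, and 62.9, 58.2 and 66.5 CPM in litter 3. The lowest mouse of litter 1 stood above the highest mouse elsewhere, and litter 2 was below litter 3 except for mouse 7, at 58.8 CPM, just above mouse 10. The log2 difference of Zfp36 between litters 1 and 2 was 1.04 (SE 0.17, adjusted p 0.0473 in the edgeR fit) and between litters 1 and 3 it was 0.74 (SE 0.19, adjusted p 0.207). All 10 genes had an unadjusted p under 0.05 between litters 1 and 2, against 11.1% of all genes. Fos and Zfp36 were the 2 of the 10 genes called between litters 1 and 2, against 0.246% of all genes tested. Both calls lie just under the threshold: without mouse 8 the pair called was Fos and Egr1, without mouse 9 Fos alone was called, and without any other mouse, or without robust estimation, none of the 10 was. DESeq2 called 6 of the 10 in this contrast (3.84% of all genes) and edgeR without a filter on low counts called 5 (1.69%).

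Egr1 had 249, 287, 227 and 301 CPM in litter 1, 144, 101, 80.2 and 170 CPM in litter 2, and 143, 167 and 162 CPM in litter 3. Litter 1 was again clear of all other mice, and litter 2 was the most uneven. Its log2 difference between litters 1 and 2, 1.11 (SE 0.21), was as large as that of Fos but did not pass (adjusted p 0.0716 in the edgeR fit).

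Atf3 was at 67.2, 73.8, 80.3 and 81.4 CPM in litter 1, at 48.8, 37.8, 33.1 and 48.2 CPM in litter 2, and at 36.4, 47.4 and 31.2 CPM in litter 3. Ier3 was at 106, 108, 92.4 and 95.2 CPM in litter 1, at 70.0, 40.2, 57.0 and 59.7 CPM in litter 2, and at 56.9, 47.8 and 52.2 CPM in litter 3. In both genes litters 2 and 3 overlapped and litter 1 stood apart. Their log2 differences from litter 3 were 0.99 (SE 0.21) for Atf3 and 0.92 (SE 0.19) for Ier3, with adjusted p of 0.131 and 0.126 in the edgeR fit. Against litter 3, edgeR called 0 of the 10 genes (0.0176% of all genes), with 8 of the 10 at an unadjusted p under 0.05 (10.0% of all genes), DESeq2 called Atf3, Ier3 and Zfp36 (3.89%), and edgeR without a filter called Egr1, Atf3 and Ier3 (0.947%).

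The Jun subunits and Ier2 differed less. Jun was at 319, 406, 390 and 328 CPM in litter 1, 304, 220, 251 and 323 CPM in litter 2 and 319, 281 and 268 CPM in litter 3. Junb was at 277, 334, 356 and 318 CPM in litter 1, with all other mice at or below 276 CPM, so that mouse 1 lay above mouse 9 by less than 1 CPM. Jund was at 50.8 to 56.5 CPM in litter 1 and at 25.8 to 44.5 CPM in the other mice. Thus litter 1 was clear of the other litters in Junb and Jund and overlapped them in Jun. Ier2 was at 433, 524, 484 and 461 CPM in litter 1 and at 325 to 397 CPM elsewhere, apart from PBS mouse 8, at 484 CPM. The log2 differences between litters 1 and 2 were 0.39 (SE 0.14) for Jun, 0.42 (SE 0.14) for Junb, 0.47 (SE 0.20) for Jund and 0.36 (SE 0.14) for Ier2, none called.

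Fosb had an order of its own. It was at 10.5, 14.6, 15.6 and 12.8 CPM in litter 1, at 5.20, 5.10, 9.07 and 7.38 CPM in litter 2, and at 17.7, 14.0 and 14.3 CPM in litter 3. All mice of litter 2 lay below all others, and litters 1 and 3 overlapped. The log2 difference of Fosb between litters 2 and 3 was -1.20 (SE 0.36, adjusted p 0.679 in the edgeR fit), and DESeq2 called it (1.71% of all genes). In this contrast edgeR called 0 of the 10 with the filter (0% of all genes) and 0 without it (0.339%), and 2 of the 10 had an unadjusted p under 0.05 against 6.45% of all genes. Against litter 1 the difference of litter 3 was small, -0.18 as litter 1 minus litter 3 (SE 0.36).

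Over the 10 genes, all 4 mice of litter 1 lay above all 7 other mice in 6 (Junb, Jund, Egr1, Atf3, Ier3 and Zfp36), against 1.52% of all genes tested. The median log2 difference between litters 1 and 2 was 0.83 and between litters 1 and 3 it was 0.52, where the median over all genes tested was -0.00 and 0.00. Summed over the 10 genes, the level was 1926 to 2287 CPM in litter 1 and 1152 to 1636 CPM in the other mice.

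**Figure D2:**
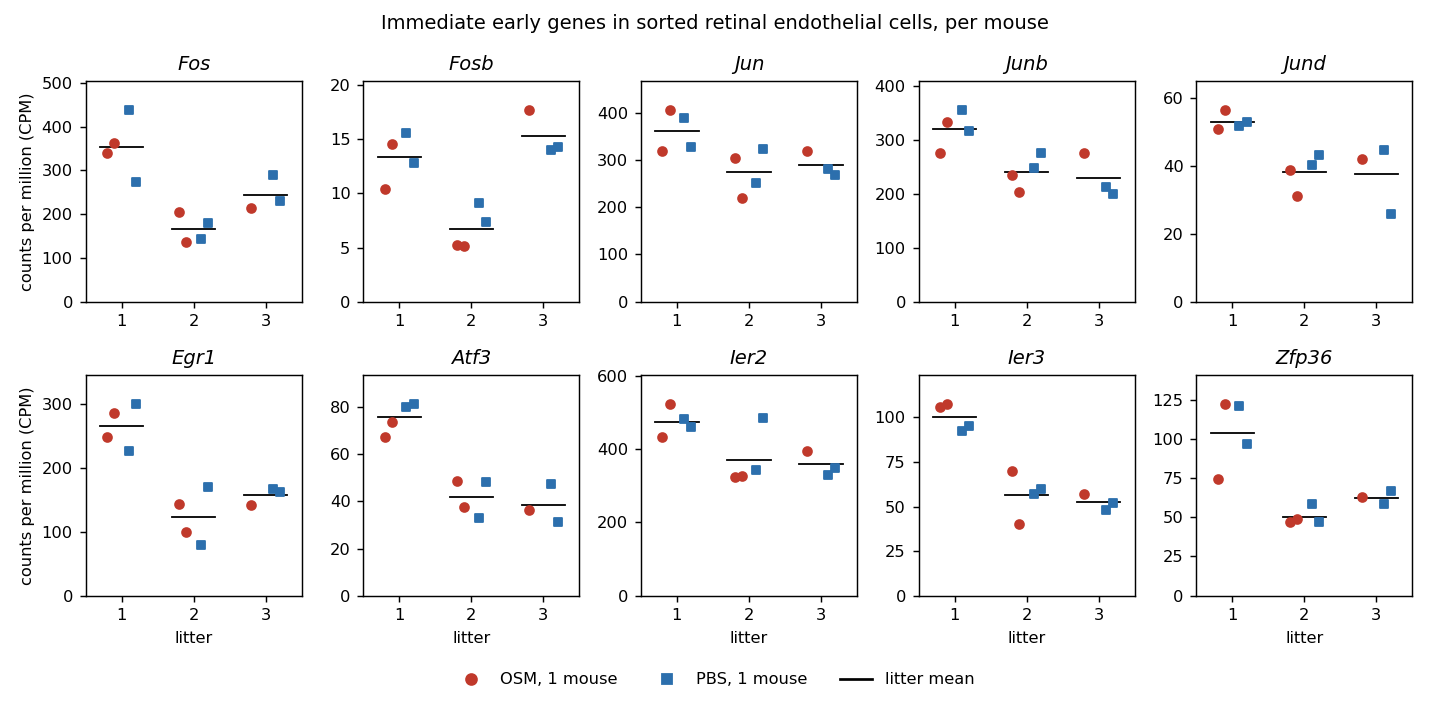
Level of each of the 10 genes in CPM (y axes, from 0) in each mouse, by litter (x axes). Red circles are OSM mice, blue squares PBS mice and black lines litter means. Litter 1 lies above the other litters in most panels, with Fos at 274 to 439 CPM, and no panel separates all OSM from all PBS mice.

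**Figure D3:**
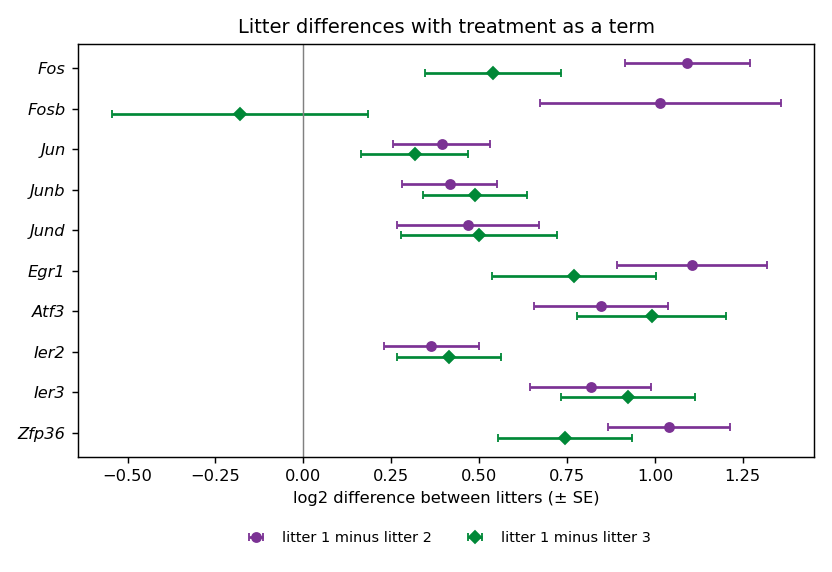
Log2 differences of litter 1 from litter 2 (purple circles) and from litter 3 (green diamonds) on the x axis for each gene (y axis), with lines of 1 SE either side. All differences are above 0 except that of Fosb from litter 3, at -0.18.

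Other genes of the same class were given by lists. Of 40 other immediate early genes, 16 had an unadjusted p under 0.05 between litters in edgeR, against 10.3% of all genes tested. Of the 40, 1, Klf6, was called, against 0.0176% of all genes, and 31 were highest in litter 1, against 5918 of all 17050. Their median log2 difference was 0.47 from litter 2 and 0.47 from litter 3. The highest expressed were Ccn1, a matricellular protein, at 228 RPKM, Nfkbia, the inhibitor of NF-kappaB, at 223 RPKM and Klf2, an endothelial flow-responsive factor, at 147 RPKM. The level of these 40 genes summed to 6888 to 7877 CPM in litter 1 and to 4480 to 5544 CPM in the other mice. With OSM, 0 of the 40 were called and 3 had an unadjusted p under 0.05, against 4.96% of all genes tested. These were Ccn1 (log2 difference -0.45, SE 0.20), Zfp36l2 (0.55, SE 0.25), a relative of Zfp36, and Egr4. The adjusted p of Ccn1 and of Zfp36l2 was 0.955 in the edgeR fit. Egr4, at a mean of 0.0853 RPKM, is too low to give a fold.

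Of 16 other AP-1 and bZIP subunits tested, 4 had an unadjusted p under 0.05 between litters (10.3% of all genes), and none was called there or with OSM. The highest expressed were Atf4 (46.7 RPKM), the effector of the integrated stress response, Nfe2l2 (34.0 RPKM), which drives antioxidant genes, and Cebpd (25.0 RPKM). Creb1, which binds the cyclic AMP response element, had a log2 difference of 0.53 (SE 0.20) between OSM and PBS and an adjusted p of 0.955 in the edgeR fit.

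Heat shock genes, which encode chaperones and which many dissociation signatures also hold, are set beside them. Of 14, 2 had an unadjusted p under 0.05 between litters (10.3% of all genes) and 0 were called, and their median log2 difference between litters 1 and 2 was -0.02. Their summed level was 3231 to 3706 CPM over all 11 mice, and litter 1 lay within the range of the others. Most of this sum came from Hsp90ab1 and Hspa8, with a mean log2 CPM of 10.9 and 9.77, so it says little about the lower genes. Hspa1a and Hspa1b were low, at 0.519 and 0.766 RPKM. Their log2 differences between litters 1 and 2 were uncertain, at 1.03 (SE 1.12) and -0.25 (SE 1.36). Hsp90ab1 (354 RPKM), Hspa8 (101 RPKM) and Hspb1 (54.3 RPKM) were the highest expressed, and Hspd1 had a log2 difference of -0.33 (SE 0.14, adjusted p 0.955 in the edgeR fit) between OSM and PBS.

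**Figure D4:**
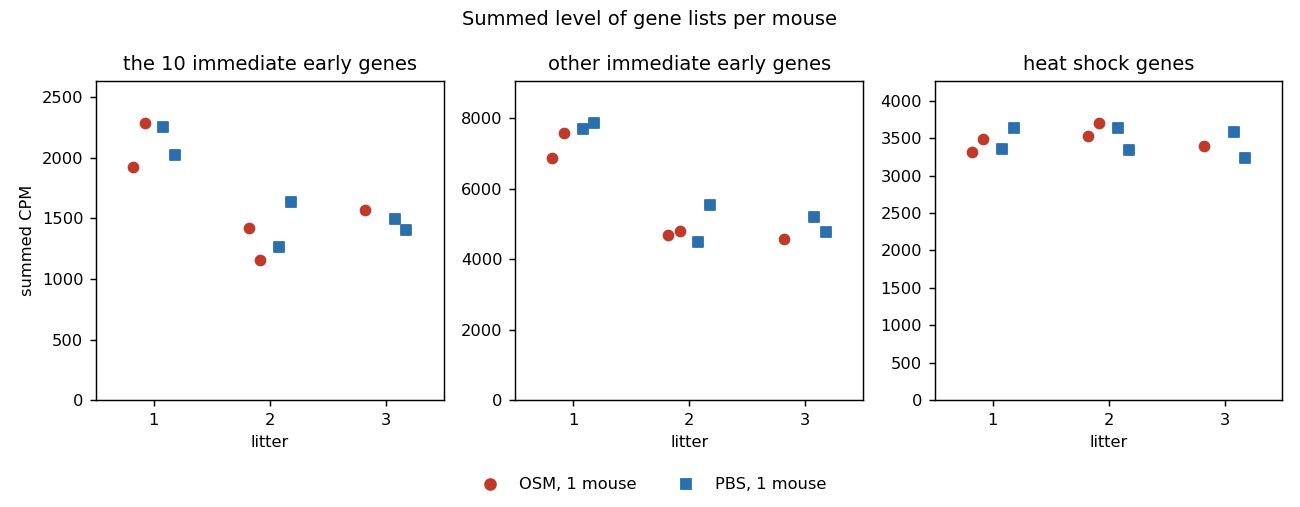
Summed level in CPM (y axes, from 0) of the 10 immediate early genes, of 40 others and of 14 heat shock genes in each mouse, by litter (x axes), with OSM mice as red circles and PBS mice as blue squares. Litter 1 lies above the other mice in the first 2 panels, at 1926 to 2287 and 6888 to 7877 CPM, and not in the third.

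The genes were then compared with each other across the 11 mice. All 45 pairs had a positive Pearson's r on log2 CPM, with a median of 0.75 and a range of 0.24 to 0.89. The median Spearman's rho was 0.70. After Benjamini-Hochberg adjustment over the 45 pairs, permutation tests (100000 resamples, two-sided) called 35 pairs by r and 29 by rho. Over all pairs of the genes tested the median r was 0.00, and 50.3% of the pairs were positive.

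The highest r was between Junb and Ier2, 0.89 (rho 0.77, adjusted permutation p 0.00486 for r and 0.0229 for rho, n = 11). Jun and Junb followed at 0.88 (rho 0.88, adjusted permutation p 0.00486 and 0.0147). Fos, the partner of the Jun proteins, had its highest r with Egr1, 0.85 (rho 0.76, adjusted permutation p 0.00656 and 0.0233). Without the 2 mice farthest from the median on the x axis, these values were 0.89, 0.84 and 0.86, and the median over all pairs was 0.71, with 44 of 45 pairs positive. Fosb took part in the pairs with the lowest r, such as 0.24 with Atf3 (rho 0.10).

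The pairs were then compared within litters. After the mean of each litter was subtracted, the median r over the 45 pairs was 0.36, 38 pairs were positive, and 0 passed by r or rho in an exact test over the 3456 permutations within litters. With the treatment mean also removed, the median was 0.37 and 0 pairs passed an approximate permutation test. The highest litter-centred values were those of Jun and Junb, 0.79 (adjusted exact p 0.165), and of Fosb and Junb, 0.77 (adjusted exact p 0.165). Fos and Egr1 went from 0.85 to 0.35, Fos and Zfp36 from 0.81 to 0.04, and Egr1 and Zfp36 from 0.73 to -0.33. Other pairs changed less, such as Junb and Ier2, from 0.89 to 0.73, and Fosb and Junb rose from 0.43 to 0.77. A link within litters is therefore not shown at this number of mice.

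**Figure D5:**
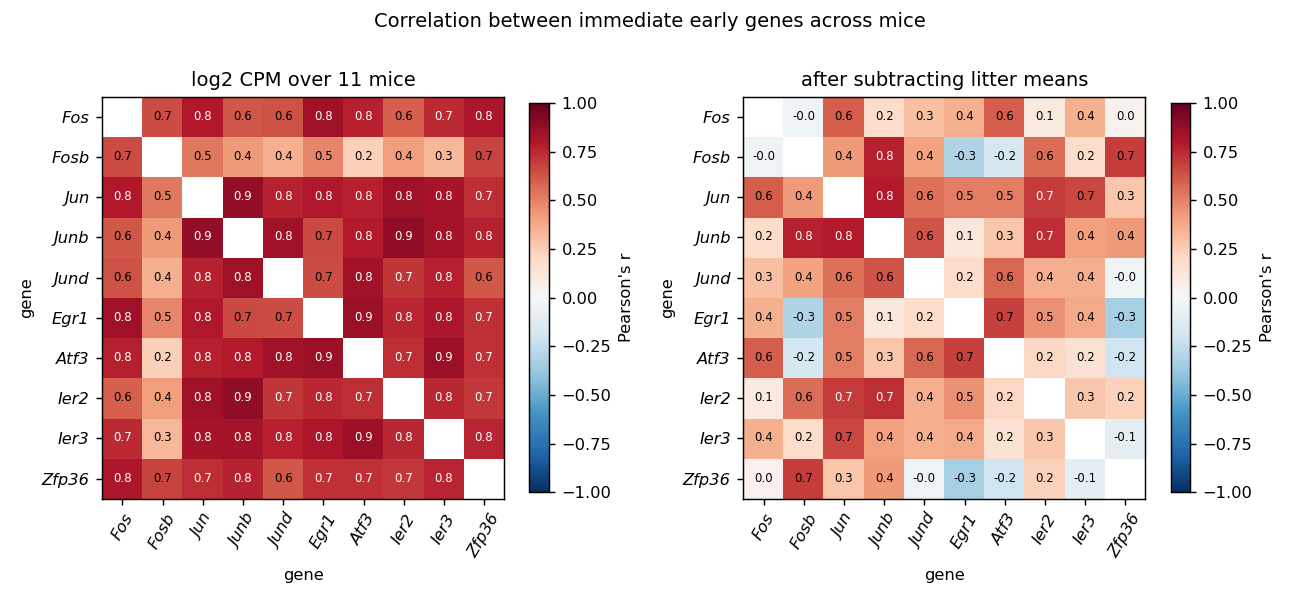
Pearson's r between each pair of the 10 genes (both axes) across 11 mice, on log2 CPM (left) and after subtraction of litter means (right), from blue at -1 to red at 1. All pairs are positive on the left, with a median of 0.75, and 38 of 45 on the right, with a median of 0.36.

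Measures of the libraries were compared with the 10 genes in 70 relations. The share of reads from mitochondrial genes was 0.966% to 1.52% in litter 1 and 1.81% to 3.02% in the other mice, and its r was below 0 with all 10 genes. After adjustment over the 70 relations, permutation tests called 3 by r: Ier2 (r -0.92, rho -0.84, adjusted permutation p 0.0241 and 0.0800), Ier3 (r -0.86, rho -0.80, adjusted permutation p 0.0355 and 0.0800) and Egr1 (r -0.85, rho -0.79, adjusted permutation p 0.0241 and 0.0800). By rho, 0 of the 70 were called. Without the 2 mice farthest from the median share, r was -0.94, -0.74 and -0.79 for these 3 genes. Within litters the median r over the 10 genes was -0.17 and 0 relations were called by the exact test. Ier2 had a litter-centred r of -0.83 (adjusted exact p 0.859), whereas Ier3 had -0.23 and Egr1 -0.56.

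Total counts, the number of genes detected and the summed rod, mural, leukocyte and red blood cell markers gave 0 called relations. Their median r over the 10 genes was 0.08 for total counts, 0.43 for genes detected, -0.37 for rod, -0.40 for mural, 0.27 for leukocyte and -0.38 for red blood cell markers. The rod markers had their lowest r with Fosb, -0.78 (rho -0.82, adjusted permutation p 0.0533 and 0.0800), and it was -0.44 without the 2 farthest mice and -0.65 within litters. The part of the mitochondrial share, which moves with litter, and of the rod markers in these levels was not tested.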

How the data were processed

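Whole-number counts of reads per gene were deposited by the authors for 11 mice, without normalization. Per the labels and the paper's methods, cDNA was primed on poly(A) and amplified without molecular identifiers, and single reads were aligned to GRCm39 with STAR and counted with featureCounts. GENCODE vM39 gave symbols for 54749 of 55359 genes. Samples were grouped by the labels, which give litters 1 to 3. The columns for mice 10 and 11 carry other mouse numbers in their headers and were taken by the record of each file. No 2 libraries were copies. Labels do not say whether litters were digested on separate days.

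Counts were tested with edgeR 4.0.16 in R 4.3.3 (TMM, filterByExpr, robust quasi-likelihood fit with litter and treatment, Benjamini-Hochberg adjustment over 17050 genes, threshold 0.05). Litter tests came from the same fit, the interaction from a fit with treatment by litter terms added, and the pairwise litter contrasts were added after seeing the data. Correlations used log2 CPM with a prior count of 2. The tests were tried on simulated data. DESeq2 1.42.0, other normalization, no filter, no litter term, thinning and leaving out mice or litters were alternatives. The members and lists were chosen with earlier results of these data known. Named genes were the 10 listed, the 3 highest per length of each other list, those with an unadjusted p under 0.05 with OSM (the red blood cell genes and Pdgfrb, a mural marker, are given as part of their lists), and the genes most like the 10 or Fos. Some genes that this rule names are not reported here. Depp1, mt-Co1, Klf6, Ptprc, Pecam1, Vwf, Erg, Hbb-bt, Hspa1a, Hspa1b, Slc1a3, Gfap, Rlbp1, Sox9 and Dkk3 were named after their values were seen. With 11 mice and 1 library each, the spread between mice and that of sorting and amplification cannot be told apart. Protein sequences were not used here.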

Additional observations from a re-analysis of the deposited data

How the results depend on the processing

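None of the 10 genes was called between OSM and PBS under any alternative run. The number of all genes called rose from 0 to 65 without a filter on low counts, 168 with DESeq2 and 88 with DESeq2 without litter, and the cause was not tested. The log2 difference between OSM and PBS, near 0 in each gene, changed sign in 33 of 210 alternative fits and was never called. It was 0.0224 for Jund without the litter term and 0.0193 with DESeq2 without litter. Without litter 1 it was 0.0115 for Atf3 and 0.0238 for Junb. Without litter 2 it was 0.0218 for Fosb, 0.0956 for Ier2, 0.0856 for Junb and 0.124 for Jund, and without litter 3 it was 0.0264 for Fos and -0.0616 for Jun. Leaving out 1 mouse at a time gave -0.160 to 0.00252 for Atf3, -0.186 to 0.120 for Egr1, -0.155 to 0.0593 for Fos, -0.167 to 0.0492 for Ier2, -0.00909 to 0.208 for Ier3, -0.0617 to 0.0927 for Jun, -0.201 to 0.0218 for Junb and -0.114 to 0.0615 for Jund. It stayed below 0 for Fosb, at -0.13 without mouse 7 to -0.43 without mouse 9, and for Zfp36, at -0.211 without mouse 2 to -0.00936 without mouse 1.

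Between litters, edgeR called 3 genes, and 625 without a filter (5 of the 10) and 988 with DESeq2 (7 of the 10). The count was 0, 11 and 9 without litters 1, 2 and 3, 16 with thinned libraries and 0 to 44 without 1 mouse, the highest without mouse 8. The interaction called 305 without a filter, 673 with DESeq2, 1 without litter 1 and 0 to 1 without 1 mouse. Between litters 1 and 2, 42 genes were called (2 of the 10). Without a filter this was 488 (5), with DESeq2 983 (6), without robust estimation 6 (0), without litter 3 9 (0), and without 1 mouse 0 to 117 (0 to 2). All 170 alternative fits kept the 10 genes higher in litter 1 than in litter 2. Between litters 1 and 3, 3 genes were called (0 of the 10), against 274 (3) without a filter, 842 (3) with DESeq2, 11 without litter 2, 10 with thinned libraries and 0 to 19 without 1 mouse.

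Of the 45 pairs, 35 were called, 0 after litter centring, 0 after centring on litter and treatment and 20 to 38 without 1 mouse, the lowest without mouse 2. Of the 70 relations with library measures, 3 were called, 0 after litter centring and 0 to 3 without 1 mouse. No paired analysis was possible because each mouse number occurs in 1 group only; litter was the block in the design.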

Other observations

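The kinases and factors that act upstream of immediate early genes were examined as a list. Of 18 upstream kinases and factors tested, 1 had an unadjusted p under 0.05 between litters, against 10.3% of all genes. The median log2 difference between litters 1 and 2 was 0.11, and the summed level was 1743 to 2062 CPM. Mapk3, the kinase ERK1, stood at 118 RPKM, Mapkapk2 at 34.3 RPKM and Elk3, a partner of serum response factor, at 27.1 RPKM. Of 10 early inflammatory genes, 3 had an unadjusted p under 0.05 between litters (10.3% of all genes) and 0 were called. Icam1 and Vcam1, the leukocyte adhesion receptors, stood at 48.4 and 7.13 RPKM and the interferon regulatory factor Irf1 at 15.1 RPKM. The summed level of the list was 426 to 520 CPM in litter 1 and 264 to 415 CPM in the other mice.

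The genes whose log2 CPM was most like the mean standardized level of the 10, over 11 mice, were Klf2 (r 0.97), Gpr4 (0.95), Cmtm6 (0.94), Alas1 (0.92), Sdc3 (0.91), the lens crystallin gene Crybb2 (0.91), Robo4 (0.90), Ptprm (0.90), Slc7a5 (0.90) and the lens crystallin gene Cryaa (0.90). They were picked from all genes tested for this likeness, and the points share litters, so the values are a description. Klf2 was also on the list of other immediate early genes. Most like Fos were Itprid2 (0.95), Vwf (0.94), Col4a1 (0.92), Zfp319 (0.91) and Zfp423 (0.91). After litter centring, Gpr4 remained among the 10 genes most like the mean, at 0.95, and Klf2 did not.

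Other marker lists gave no called gene with OSM. Müller cell markers summed to 1726 to 2197 CPM, led by Vim (291 RPKM), Apoe (71.6 RPKM) and Glul (60.2 RPKM), which endothelial cells also express, while Slc1a3 (0.373 RPKM), Gfap (0.180 RPKM) and Rlbp1 (3.65 RPKM) were low and 2 of the 10 did not pass the filter. Mural cell markers summed to 307 to 1712 CPM, led by Rgs5 (59.1 RPKM), Kcnj8 (28.0 RPKM) and Acta2 (13.4 RPKM), and Pdgfrb had a log2 difference of -0.55 (SE 0.24) between OSM and PBS. Among the rod markers, Gnat1 stood at 90.9 RPKM and Rom1 at 42.5 RPKM, and the highest leukocyte markers were Lyz2 (2.47 RPKM), Tyrobp (1.36 RPKM) and Cx3cr1 (0.177 RPKM).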
